A study of Caenorhabditis elegans with 18 samples.

Results

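The genes described here are 8 genes of the oxidative stress pathway of Caenorhabditis elegans that ends in the transcription factor SKN-1 and in the synthesis and recycling of glutathione. They are skn-1 itself, its negative regulator wdr-23, the p38 kinase cascade genes nsy-1, sek-1 and pmk-1, and the glutathione genes gcs-1, gss-1 and gsr-1. They were taken as every probe set of the array whose annotated gene symbol was exactly one of these names. That rule gave 12 probe sets for 7 of the 8 genes, among 22625 probe sets in all: 3 for skn-1, 2 each for sek-1, gcs-1 and gss-1, and 1 each for wdr-23, pmk-1 and gsr-1. For nsy-1 the probe table used here lists no probe set, so no value is given for it. All 12 probe sets passed the filter on low signal, which was set on the mean over all arrays and left 13529 probe sets for testing.

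Total RNA of whole wild-type N2 worms, grown at 20 °C on agar with Escherichia coli OP50 as food, was hybridised to 18 Affymetrix arrays in 4 groups. The TRF+H2O2+TRF worms (n = 4) received TRF, a tocotrienol-rich fraction of vitamin E, before and after a hydrogen peroxide exposure, from hatching to adult day 3. The TRF worms (n = 4) had TRF throughout life, the H2O2 worms (n = 5) were exposed as L4 larvae to 0.3 mM H2O2 for 2 h, and the control worms (n = 5) aged without either agent. The labels give neither the TRF dose nor the age at which the H2O2, TRF and control worms were collected, do not repeat the H2O2 dose for the TRF+H2O2+TRF worms, and do not say whether replicates were separate cultures. The p-values therefore measure the spread between these arrays, which may be technical. RNA came from whole animals, so fewer cells of a type and less RNA per cell cannot be told apart. All groups carry the same genotype, and none of the 8 genes was altered in any of them.

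SKN-1 is the worm relative of the mammalian Nrf factors and switches on detoxification and antioxidant genes. WDR-23 brings SKN-1 to a CUL-4/DDB-1 ubiquitin ligase that marks it for degradation. In oxidative stress the kinase cascade from NSY-1 through SEK-1 to PMK-1 phosphorylates SKN-1, which then accumulates in intestinal nuclei. These steps act on the protein, and the arrays measure mRNA alone. Among the genes that SKN-1 activates is gcs-1, the catalytic subunit of glutamate-cysteine ligase, whose reaction is the first and rate-limiting step of glutathione synthesis. Glutathione synthetase, from gss-1, completes the molecule, and glutathione reductase, from gsr-1, returns its oxidised form to the reduced one.

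No probe set of the 7 genes passed the threshold, a Benjamini-Hochberg adjusted limma p under 0.05 over all 13529 probe sets, in any comparison. The series design compares H2O2 with control, TRF with control and TRF+H2O2+TRF with H2O2, and in these the count was 0 of 12 each time. The background was nearly as low: 0% of the tested probe sets passed for H2O2 against control, 0.00739% (1 of 13529) for TRF against control and 0% for TRF+H2O2+TRF against H2O2. The added comparisons of TRF+H2O2+TRF with control and with TRF, the interaction of TRF and H2O2 and the test of any difference among the 4 groups each gave 0 of 12, against a background of 0%. At an unadjusted limma p under 0.05, 1 of the 12 probe sets passed for TRF against control, beside 3.50% of all tested ones, and 0 of 12 passed for H2O2 against control and for TRF+H2O2+TRF against H2O2, beside 2.34% and 2.23%. These fits, like the others unless stated, took the arrays as unpaired. The methods' t-test at p under 0.05 gave the same counts, 0 of 12 for H2O2 against control, 1 of 12 for TRF against control and 0 of 12 for TRF+H2O2+TRF against H2O2, beside 2.96%, 4.15% and 2.71% of all tested probe sets. Each of the 12 probe sets had overlapping groups in all 5 comparisons of a pair of groups. Groups that do not overlap occurred in 0.473% of tested probe sets for H2O2 against control, 1.18% for TRF against control, 0.961% for TRF+H2O2+TRF against H2O2, 1.03% for TRF+H2O2+TRF against control and 1.09% for TRF+H2O2+TRF against TRF. In the order of the 4 group means of each probe set, no neighbouring groups were separated from each other.

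**Figure D1:**
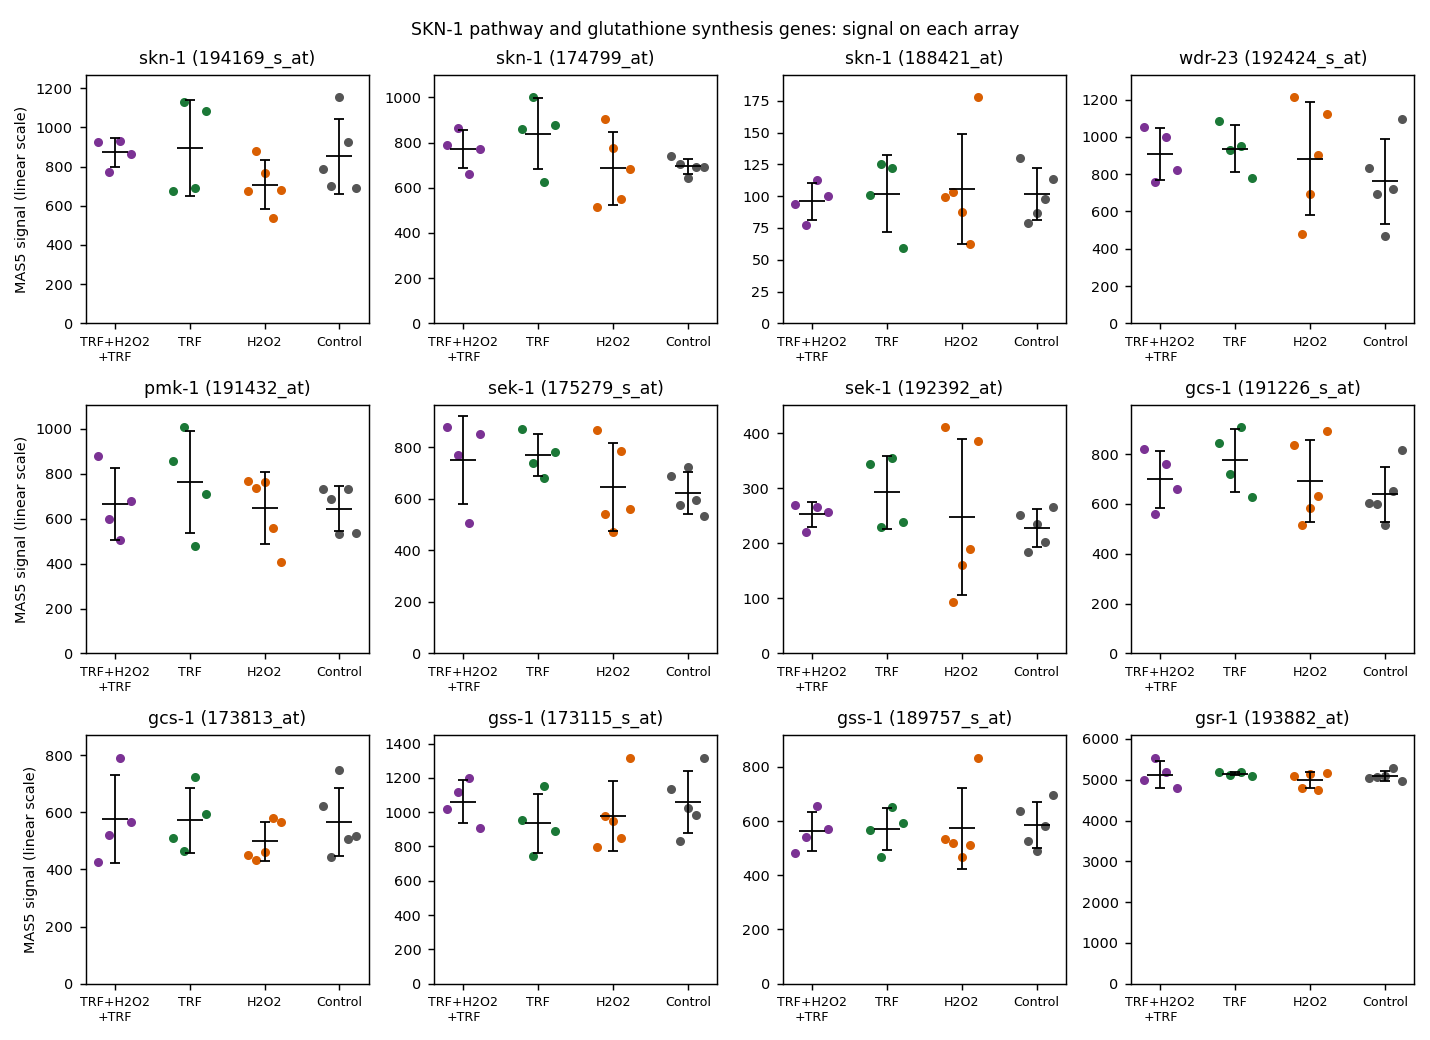
Deposited MAS5 signal (linear scale, arbitrary units) of the 12 probe sets in each of the 18 arrays, 1 panel per probe set, with the groups TRF+H2O2+TRF, TRF, H2O2 and control side by side and the group mean and SD marked. The groups overlap in every panel, and gsr-1 lies between 4759 and 5545 in all 18 arrays.

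The transcription factor gene skn-1 was measured by 3 probe sets, of which 194169_s_at had the highest mean log2 signal and leads its description. Its signal was 923, 771, 929 and 864 in the TRF+H2O2+TRF arrays and 677, 1127, 689.7 and 1085 in the TRF arrays. It was 675, 879, 769, 535 and 681 in the H2O2 arrays and 788, 702, 1154, 924 and 692 in the control arrays. The 4 TRF+H2O2+TRF arrays lay close together, while the TRF arrays split into a lower and a higher pair, and 3 of the 5 H2O2 arrays lay below every control array. The H2O2 arrays averaged 708 ± 127 and the control arrays 852 ± 193 (SD, n = 5 each), a log2 fold change of -0.26 ± 0.18 (SE). This was the lowest of the 12 member values in that comparison, and it missed the threshold (adjusted p = 1.00), with a 95% interval of the fold of 0.642 to 1.09. Where same-numbered arrays were paired, skn-1 was higher in 1 of 5 H2O2 arrays than in the control array of the same number, with pair differences between -0.79 and 0.32 on the log2 scale.

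The skn-1 signal averaged 872 ± 73.0 in TRF+H2O2+TRF worms (SD, n = 4), against the H2O2 mean above, a log2 fold change of 0.32 ± 0.16 (SE, adjusted p = 1.00). The interval of that fold, 0.972 to 1.59, includes no difference as well as one past 1.5-fold. TRF worms averaged 895 ± 245 (SD, n = 4), a log2 fold change of 0.057 ± 0.21 (SE) against control. The second probe set of skn-1, 174799_at, gave 789, 865, 662 and 771 in the TRF+H2O2+TRF arrays and 858, 1002, 625 and 877 in the TRF arrays. It gave 514, 906, 778, 550.1 and 684 in the H2O2 arrays and 740.4, 704, 643, 694 and 693 in the control arrays, so the H2O2 arrays spread on both sides of a narrow control group. Its log2 fold changes were -0.049 ± 0.16 for H2O2 against control, 0.25 ± 0.15 for TRF against control and 0.19 ± 0.19 for TRF+H2O2+TRF against H2O2 (SE). The third, 188421_at, ranged between 59.5 and 178 over the 18 arrays. Its H2O2 arrays averaged 106 ± 43.3 and its control arrays 101 ± 20.5 (SD, n = 5 each), a fold of 1.00 by the mean log2 values, and the mean over the 3 probe sets of skn-1 gave a log2 fold change of -0.10 in that comparison. Its log2 fold changes for TRF against control and for TRF+H2O2+TRF against H2O2 were -0.026 ± 0.26 and -0.067 ± 0.29 (SE), opposite in sign to those of the other two. The probe sets of skn-1 followed each other only in part: over the 18 arrays 194169_s_at correlated with 174799_at at r = 0.52 and with 188421_at at r = -0.032, as a description with no test.

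The wdr-23 probe set, for the WD40 protein that directs SKN-1 to degradation, read 1054, 759.7, 999 and 819.9 in the TRF+H2O2+TRF arrays and 1087, 932, 952 and 779 in the TRF arrays. It read 1213, 479.8, 693, 905 and 1123 in the H2O2 arrays and 832, 691, 470.3, 720.0 and 1098 in the control arrays. The arrays of both TRF-fed groups fell inside the range of the H2O2 arrays, and the control group held the lowest array of all 18. TRF worms averaged 938 ± 126 (SD, n = 4) and control worms 762 ± 229 (SD, n = 5), or 0.34 ± 0.21 (SE) as a log2 fold change, and the interval of the fold was 0.922 to 1.74 (adjusted p = 0.995). TRF+H2O2+TRF against control gave 0.29 ± 0.21 (SE). H2O2 against control gave 0.19 ± 0.27 and TRF+H2O2+TRF against H2O2 0.10 ± 0.25 (SE), each smaller than its standard error. Between same-numbered arrays wdr-23 was higher in 4 of 5 H2O2 arrays than in their control partners, the opposite balance to skn-1, but with pair differences between -0.53 and 0.56 on the log2 scale.

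Of the p38 cascade, pmk-1, the kinase that phosphorylates SKN-1, had 1 probe set. Its signal was 878, 599, 504 and 679 in the TRF+H2O2+TRF arrays and 859, 1007, 478 and 709 in the TRF arrays. It was 769.8, 735, 764, 559 and 406 in the H2O2 arrays and 732, 688, 533, 732 and 538 in the control arrays. Each TRF-fed and H2O2 group held arrays both above and below the whole control range. The TRF mean was 763 ± 226 (SD, n = 4), beside 644 ± 101 (SD, n = 5) in control, a log2 fold change of 0.21 ± 0.21 (SE). H2O2 against control gave -0.021 ± 0.19 and TRF+H2O2+TRF against H2O2 gave 0.052 ± 0.23 (SE), with intervals of the fold of 0.737 to 1.32 and 0.739 to 1.45. The related p38 genes pmk-2 and pmk-3 lie next to pmk-1 on the chromosome in the RefSeq gene table, and are named here for that position after their values were seen. Over the 18 arrays pmk-1 correlated with pmk-2 at r = 0.65 and with pmk-3 at r = -0.051.

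The gene sek-1, which encodes the kinase that activates PMK-1, had the smallest limma p of the 12 probe sets in the comparisons of the series design. Its leading probe set 175279_s_at gave 877, 770.5, 505 and 853 in the TRF+H2O2+TRF arrays and 872, 740.3, 679 and 783 in the TRF arrays. It gave 868, 540.1, 472, 785 and 561 in the H2O2 arrays and 688, 574, 723, 596 and 532 in the control arrays. Of the 4 TRF arrays 3 lay above all 5 control arrays, and the remaining one lay inside the control range. TRF worms averaged 768 ± 81.0 (SD, n = 4) and control worms 623 ± 79.7 (SD, n = 5), a log2 fold change of 0.31 ± 0.14 (SE) and a fold of 1.24. Its interval, 1.00 to 1.53, just left out no difference, with an unadjusted limma p of 0.0476 and 0.0313 by the methods' t-test, and it did not pass the correction over all probe sets (adjusted p = 0.995). The unadjusted p was not under 0.05 in 6 of 12 other settings, among them quantile normalization (0.0886), median centring (0.184), the fit over all 18 arrays (0.122) and the fit without the arrays numbered 5 (0.0993), nor in 6 of the 9 fits that left out 1 array (up to 0.138). The log2 fold change was 0.021 ± 0.18 for H2O2 against control and 0.23 ± 0.22 for TRF+H2O2+TRF against H2O2 (SE).

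The second sek-1 probe set, 192392_at, held the widest spread of the 12. It read 269, 220.2, 267 and 256 in the TRF+H2O2+TRF arrays and 345, 229.8, 355 and 239.6 in the TRF arrays. It read 411, 94.2, 161, 189 and 385 in the H2O2 arrays, which thus held both the lowest and the highest array of all 18, and 251, 184, 236, 203 and 265 in the control arrays. The SD on the log2 scale was 0.89 in the H2O2 group and 0.22 in the control group. Its log2 fold change for TRF against control, 0.34 ± 0.19 (SE), was near that of the leading probe set. Over the 18 arrays the sek-1 probe sets correlated at r = 0.41. A larger log2 SD in H2O2 than in control was found for 10 of the 12 probe sets of these genes and for 60.8% of all tested probe sets, a count made after the values were seen.

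The glutathione synthesis gene gcs-1 is the classical SKN-1 target. Its leading probe set 191226_s_at read 818, 559, 761 and 659 in the TRF+H2O2+TRF arrays and 844, 721, 907 and 626 in the TRF arrays. It read 837, 514, 584, 633 and 892 in the H2O2 arrays and 603, 601, 516, 652 and 817 in the control arrays. The H2O2 arrays stretched past the control range at both ends, and 2 of the 4 TRF arrays lay above it. H2O2 worms averaged 692 ± 164 and control worms 638 ± 111 (SD, n = 5 each), a log2 fold change of 0.10 ± 0.18 (SE, adjusted p = 1.00). The interval of the fold was 0.818 to 1.41, so a difference of 1.5-fold either way lay outside it. TRF against control gave 0.28 ± 0.16 (SE, fold interval 0.950 to 1.56), and TRF+H2O2+TRF against H2O2 gave 0.033 ± 0.20 (SE).

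The second gcs-1 probe set, 173813_at, did not follow the first (r = 0.047 over the 18 arrays). It read 426, 521, 791 and 567 in the TRF+H2O2+TRF arrays and 509, 464, 723 and 594 in the TRF arrays. It read 450.3, 433, 460.2, 579 and 567 in the H2O2 arrays and 620.0, 444, 746, 508 and 516 in the control arrays, and the lowest of the 18 arrays was a TRF+H2O2+TRF array. H2O2 against control gave -0.17 ± 0.17 (SE), the opposite sign to the leading probe set. TRF+H2O2+TRF against H2O2 gave 0.18 ± 0.20 (SE). The sign of gcs-1 in H2O2 thus depended on the probe set, and neither value passed the threshold.

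The gene gss-1, for the enzyme that adds glycine to complete glutathione, read 1017, 1117, 1198 and 909 by 173115_s_at in the TRF+H2O2+TRF arrays and 954, 743, 1155 and 890.1 in the TRF arrays. It read 796, 977, 946, 848 and 1318 in the H2O2 arrays and 1138, 832, 1022, 982 and 1314 in the control arrays. The arrays numbered 5 of both the H2O2 and the control group were the highest of the 18. It was the leading probe set with the lowest TRF value against control, -0.18 ± 0.16 (SE), and H2O2 against control gave -0.12 ± 0.16 (SE). The TRF+H2O2+TRF arrays were higher in 4 of 4 pairs of same-numbered arrays with TRF, with differences between 0.031 and 0.59 on the log2 scale, yet the groups overlapped and the log2 fold change of 0.19 ± 0.16 (SE) missed the threshold (adjusted p = 1.00). The second probe set, 189757_s_at, correlated with the first at r = 0.75, the closest pair within a gene. It read 484, 543, 657 and 569.8 in the TRF+H2O2+TRF arrays and 567, 468, 654 and 594 in the TRF arrays. It read 532, 519, 468, 512 and 835 in the H2O2 arrays and 638, 525, 488, 583 and 698 in the control arrays, and its group means lay between 563 and 586.

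The glutathione reductase gene gsr-1 barely varied between arrays. Its signal was 4983, 5545, 5194 and 4794 in the TRF+H2O2+TRF arrays and 5195, 5124, 5188 and 5104 in the TRF arrays. It was 5089, 4801, 5134, 4759 and 5164 in the H2O2 arrays and 5055, 5073, 5096, 5298 and 4961 in the control arrays. The highest of the 18 arrays was 1.17-fold above the lowest, and both lay in groups exposed to H2O2. The log2 fold changes were -0.031 ± 0.079 for H2O2 against control, 0.016 ± 0.074 for TRF against control and 0.039 ± 0.093 for TRF+H2O2+TRF against H2O2 (SE). The widest interval of its fold in the 5 comparisons of a pair of groups was 0.893 to 1.18. The SD within groups, 0.055 on the log2 scale, was the smallest of all 13529 tested probe sets, whose median was 0.32, an observation made after the values were seen. That rank depended on the scaling: after quantile normalization gsr-1 ranked 202 and after median centring 40, counted from the smallest.

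**Figure D2:**
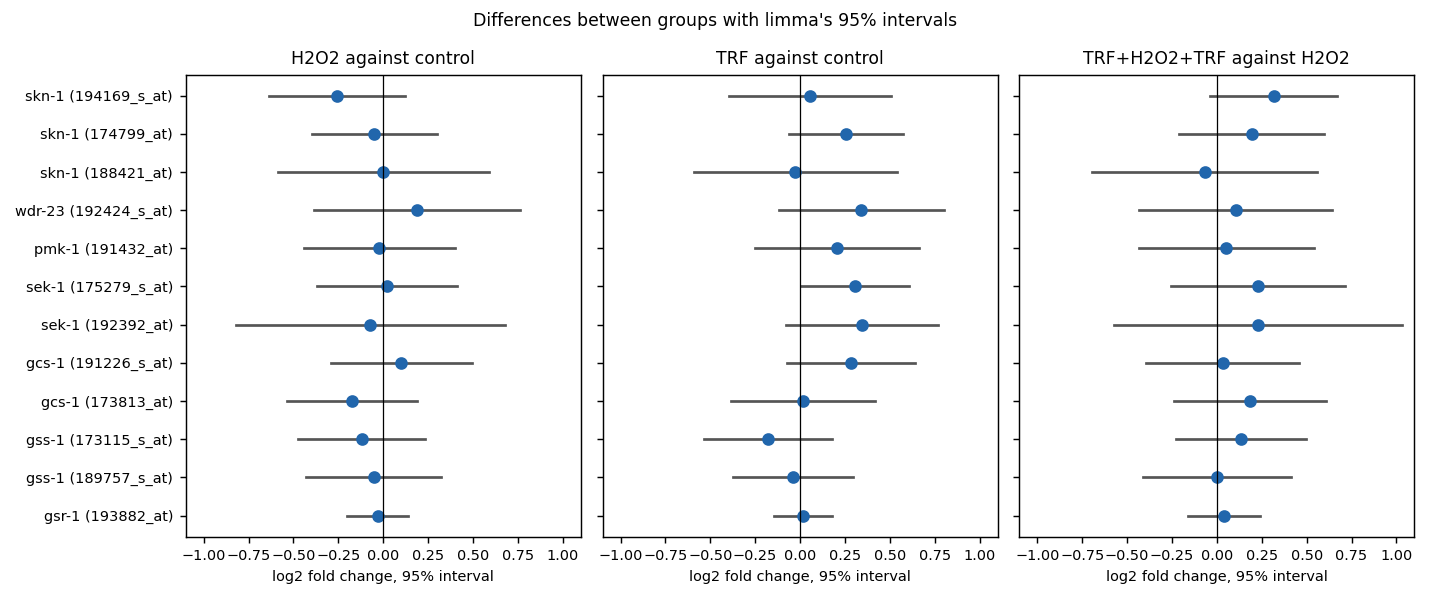
Log2 fold change of each of the 12 probe sets in the 3 comparisons of the series design, with 95% intervals from limma. All intervals cross 0 except that of the leading probe set of sek-1 in TRF against control, which runs between 0.0038 and 0.61 and whose unadjusted p stayed under 0.05 in 6 of 12 other settings.

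Read as a group, the 12 probe sets held no value past the threshold. Their balance of signs moved with the scaling for TRF and for H2O2 against control, as did the share of all probe sets. For TRF against control, 9 of the 12 were higher and 3 lower, with a median log2 fold change of 0.13, beside 57.6% higher and a median of 0.039 over all tested probe sets. After median centring 6 of the 12 were higher, beside 39.0% of all, and after quantile normalization 8 of the 12, beside 50.7%. For H2O2 against control, 4 of the 12 were higher and 8 lower, with a median of -0.040, beside 49.5% higher and a median of -0.0019 over all. Median centring made this 2 higher and 10 lower, beside 33.0% higher of all. For TRF+H2O2+TRF against H2O2, 10 of the 12 were higher, with a median of 0.12, beside 54.7% and 0.022 over all. Here 9 were higher with quantile normalization, beside 50.9% of all, and 10 with median centring, beside 53.3%. Without the arrays numbered 5 the count was 11, beside 55.6%. The TRF group had the highest of the 4 group means in 8 of the 12 probe sets and in 30.2% of all tested ones. The 12 probe sets come from 7 genes and the same arrays, so they are not independent counts. H2O2 against control shares its H2O2 arrays with TRF+H2O2+TRF against H2O2 and its control arrays with TRF against control, so their values are not independent either.

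The 95% intervals, from unpaired fits, give the folds compatible with these values. They do not give the smallest difference that could have passed the threshold. Over the 12 probe sets the 95% limits of the fold ran between 0.566 and 1.70 for H2O2 against control and between 0.664 and 1.74 for TRF against control. They ran between 0.618 and 2.05 for TRF+H2O2+TRF against H2O2. The limits at 0.566 and 2.05 both belong to the scattered sek-1 probe set 192392_at. For TRF+H2O2+TRF set against control and then against TRF, the limits were 0.688 to 1.69 and 0.610 to 1.46. The interaction, which asks whether the H2O2 difference in TRF-fed worms differs from that in other worms, was largest in size for gss-1 173115_s_at at 0.31 ± 0.23, followed by skn-1 194169_s_at at 0.26 ± 0.27 and gcs-1 191226_s_at at -0.25 ± 0.26 (log2, SE, adjusted p = 1.00 each). The test of any difference among the 4 groups gave unadjusted limma p-values between 0.272 (skn-1 174799_at) and 0.994 (skn-1 188421_at). Fewer than 6 arrays per group limit the precision of all these values.

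Across the 18 arrays some of these genes moved together irrespective of group, and others moved apart. These are descriptions with no test, since the points share arrays and scaling. The signal of wdr-23 correlated with that of gcs-1 191226_s_at at r = 0.89 (Spearman's rho = 0.89), at 0.89 once group means were taken out, at 0.88 without the 2 arrays farthest from the wdr-23 median and at 0.88 without the arrays numbered 5. Both also followed the second sek-1 probe set 192392_at: gcs-1 at r = 0.80 (rho = 0.86) and wdr-23 at r = 0.77 (rho = 0.84). These were the 3 values above 0.7 among the 60 pairs of probe sets of different genes, whose median r was 0.11. The second gcs-1 probe set shared none of this, with r = -0.039 against wdr-23. The leading skn-1 probe set correlated negatively with both its regulator wdr-23, at r = -0.44, and its target gcs-1 by 191226_s_at, at r = -0.34. These signs depended on the probe set. With the same pair, skn-1 174799_at gave -0.26 and -0.27, but skn-1 188421_at gave 0.35 and 0.52. With gcs-1 173813_at the leading skn-1 probe set gave 0.14 and 174799_at gave -0.34.

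**Figure D3:**
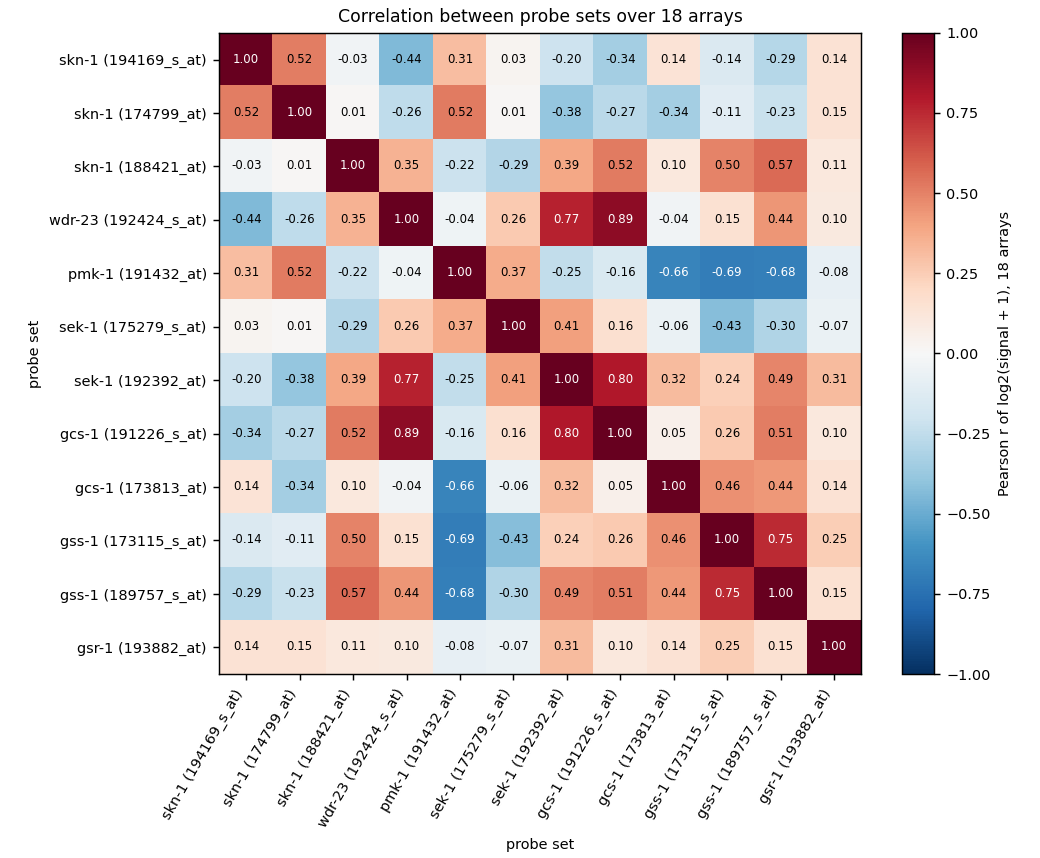
Pearson correlation of log2(signal + 1) over the 18 arrays for each pair of the 12 probe sets. The highest value between genes is wdr-23 with gcs-1 191226_s_at (0.89) and the lowest is pmk-1 with gss-1 173115_s_at (-0.69).

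The lowest correlations all involved the kinase gene pmk-1. It ran against gss-1 173115_s_at at r = -0.69 (rho = -0.63), against gss-1 189757_s_at at -0.68 (rho = -0.61) and against gcs-1 173813_at at -0.66 (rho = -0.73). Without the 2 arrays farthest from the pmk-1 median these were -0.57, -0.46 and -0.68. Within the cascade, pmk-1 correlated with the leading sek-1 probe set at r = 0.37 and with the second, 192392_at, at r = -0.25. H2O2 replicate 5 held the lowest pmk-1 signal of the 18 arrays and the highest gss-1 signal.

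**Figure D4:**
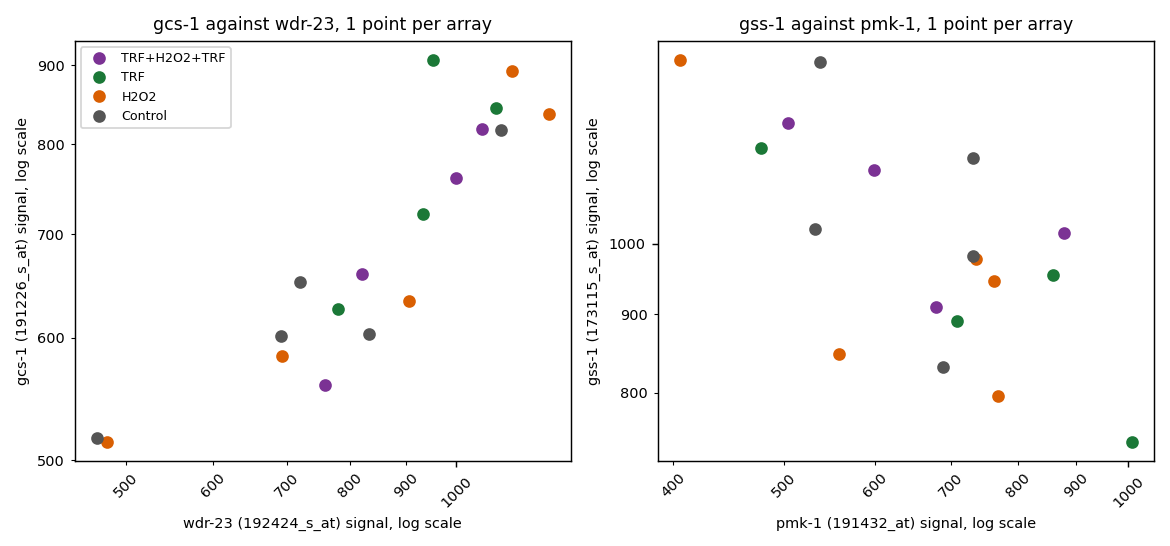
Signals (linear scale on log axes) of gcs-1 191226_s_at against wdr-23 and of gss-1 173115_s_at against pmk-1, 1 point per array, with the 4 groups in different colours. The arrays of all 4 groups lie along a rising band in the first (r = 0.89) and a falling one in the second (r = -0.69).

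Genes outside the pathway had the most similar patterns. Among 12848 tested probe sets with 1 gene symbol, the 3 genes most like gcs-1 191226_s_at over the 18 arrays were ddx-17 (r = 0.93), ogdh-1 (r = 0.93) and cpt-2 (r = 0.92), while wdr-23 ranked 22 and sek-1 192392_at ranked 391. The genes ogdh-1 and cpt-2 encode a subunit of the mitochondrial oxoglutarate dehydrogenase and a carnitine palmitoyltransferase. The 3 most like skn-1 194169_s_at were atx-2, the worm ataxin-2 gene (r = 0.77), ZK829.7 (r = 0.76) and hst-6, a heparan sulfate 6-O-sulfotransferase gene (r = 0.74). None of the other 6 genes came near the top of the skn-1 order, where the first of them, pmk-1, ranked 1275.

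The rest of the pathway was read from 4 lists, with a gene's brightest probe set standing for it, and no gene of any list passed the threshold in any comparison. The lists were chosen with earlier results of these data known. Of 19 other regulators of SKN-1 or of the p38 cascade, 18 were tested. For TRF against control 16 of the 18 were higher, beside 57.6% of all tested probe sets. Their median log2 fold change was 0.19, beside 0.039 over all. Median centring left 13 of 18 higher, beside 39.0% of all, with a median of 0.091 beside -0.059. For TRF+H2O2+TRF against H2O2, 17 of 18 were higher, beside 54.7% of all, with a median of 0.16 beside 0.022. After quantile normalization 14 of 18 were higher, beside 50.9% of all. For H2O2 against control 9 were higher and 9 lower, while after median centring, which lowered the share of all tested probe sets that were higher to 33.0%, against 49.5%, 2 were higher and 16 lower. The smallest limma p for TRF against control belonged to tir-1, the adaptor that activates NSY-1, at 1433 ± 366 in TRF worms (SD, n = 4) and 1075 ± 252 in control worms (SD, n = 5), a log2 fold change of 0.42 ± 0.20 (SE, adjusted p = 0.995). In H2O2 against control it belonged to the Mediator subunit gene mdt-15, at 0.25 ± 0.18, and in TRF+H2O2+TRF against H2O2 to the kinase gene akt-1, at 0.25 ± 0.14 (log2, SE), with the further akt-1 probe set opposite in sign.

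Detoxification genes known as SKN-1 targets, 13 tested of 14 listed, gave values on both sides of 0. For H2O2 against control 7 were higher and 6 lower, with a median of 0.0077, beside 49.5% higher of all. After median centring 6 were higher and 7 lower, beside 33.0% higher of all. For TRF against control 5 were higher and 8 lower (median -0.035), beside 57.6% higher and a median of 0.039 over all. For TRF+H2O2+TRF against H2O2 7 were higher and 6 lower (median 0.016), beside 54.7% higher and a median of 0.022 over all. Quantile normalization made this 5 and 8, beside 50.9% higher of all. The smallest p in each was that of the nitrilase gene nit-1 in H2O2, at 0.26 ± 0.19, of the glutathione S-transferase gene gst-5 in TRF, at -0.40 ± 0.19, and of the dehydrogenase gene dhs-8 in TRF+H2O2+TRF against H2O2, at 0.60 ± 0.31 (log2, SE). The gst-5 signal averaged 804 ± 86.7 in TRF worms (SD, n = 4) and 1094 ± 322 in control worms (SD, n = 5), with overlapping groups.

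Immune genes known to need PMK-1 had mostly lower values in the TRF-fed groups, and none passed the threshold. For TRF+H2O2+TRF against H2O2, 8 of the 9 tested were lower, with a median of -0.22 beside 45.3% lower of all tested probe sets, and for TRF against control 6 of 9 were lower, with a median of -0.29 beside 42.4% lower of all. These counts of 8 and 6 were the same after quantile normalization and median centring, while the share of all tested probe sets moved. For TRF+H2O2+TRF against H2O2, 49.1% and 46.7% of all were lower after those scalings. For TRF against control the shares were 49.3% and 61.0%, so 6 of 9 lay near the share of all after median centring. For H2O2 against control 5 of 9 were lower, beside 50.5% lower of all. Here the list had a median of -0.17 and a mean of 0.060, so median and mean differed in sign. The lectin gene clec-85 averaged 2479.6 ± 464 in TRF worms (SD, n = 4) and 3843 ± 977 in control worms (SD, n = 5), a log2 fold change of -0.61 ± 0.19 (SE, adjusted p = 0.995). The infection response gene irg-5 averaged 2604 ± 1797 in TRF+H2O2+TRF worms (SD, n = 4) and 4356 ± 664 in H2O2 worms (SD, n = 5), at -0.97 ± 0.33 (log2, SE), with 3 of the 4 TRF+H2O2+TRF arrays below every H2O2 array and the other, at 5128, inside the H2O2 range. For H2O2 against control irg-5 gave 0.43 ± 0.28 (log2, SE).

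A list of genes that use glutathione or supply its cysteine or NADPH, which also held the thioredoxin reductase genes trxr-1 and trxr-2, gave 22 tested of 26 listed. For H2O2 against control 10 were higher and 12 lower (median -0.011), for TRF against control 9 and 13 (median -0.082), and for TRF+H2O2+TRF against H2O2 11 and 11 (median -0.0014). Of all tested probe sets 49.5%, 57.6% and 54.7% were higher in these comparisons, with medians of -0.0019, 0.039 and 0.022. Median centring shifted all probe sets, to 33.0%, 39.0% and 53.3% higher in these comparisons, and with them the list, to 6 and 16, 5 and 17, and 11 and 11. The omega-class glutathione transferase gene gsto-3 had the smallest p in H2O2, and its groups did not overlap: the H2O2 arrays lay between 801 and 979.9 and the control arrays between 642 and 774. Such separation occurred in 0.473% of all tested probe sets in that comparison, and gsto-3 was picked from the 22 by its p. The gsto-3 log2 fold change of 0.32 ± 0.12 (SE) did not pass the correction (adjusted p = 1.00). In TRF against control the smallest p was that of gsto-1, another gene of that class, at -0.39 ± 0.21, and in TRF+H2O2+TRF against H2O2 that of trxr-2, whose mitochondrial enzyme spends NADPH on thioredoxin and not on glutathione, at 0.61 ± 0.22 (log2, SE). The trxr-2 signal averaged 293 ± 59.2 in TRF+H2O2+TRF worms (SD, n = 4) and 192 ± 41.1 in H2O2 worms (SD, n = 5).

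**Figure D5:**
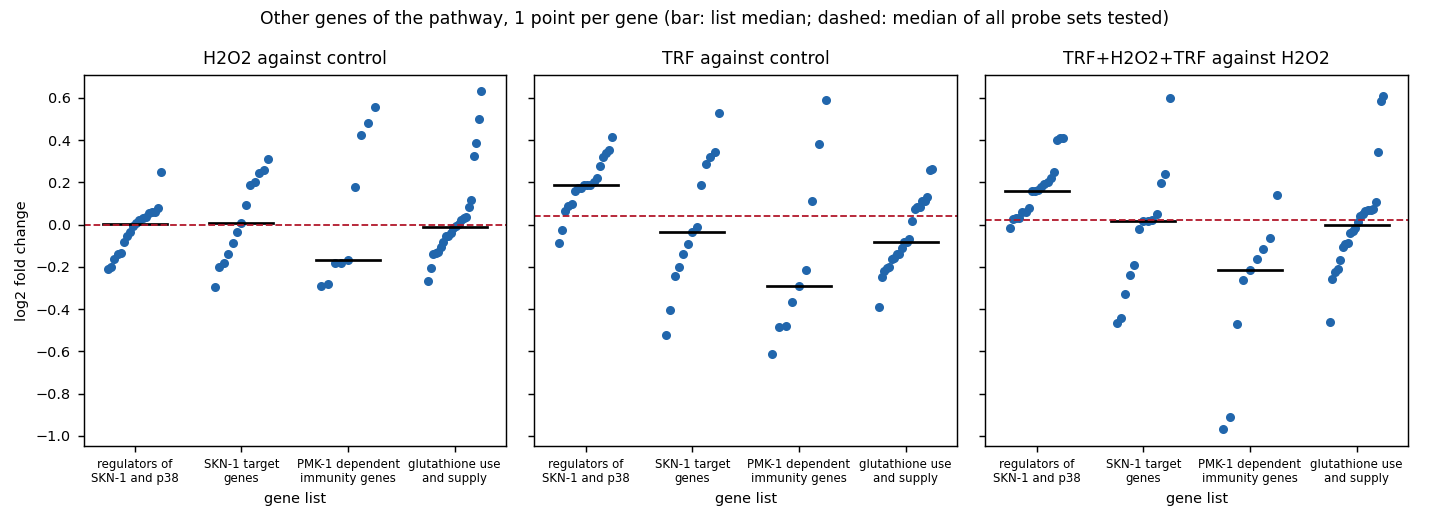
Log2 fold change of each tested gene of the 4 further lists in the 3 comparisons of the series design, 1 point per gene, with the list median marked. The regulators lie mostly above 0 in TRF against control (median 0.19) and TRF+H2O2+TRF against H2O2 (median 0.16), and the PMK-1 dependent immune genes mostly below 0 (medians -0.29 and -0.22).

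The arrays carried the RNA of all tissues, so the signals of marker genes are given beside these values. In these signals too, cells of a type and RNA per cell cannot be told apart. The summed signal of 9 neuronal markers ran between 6388 and 9825 in TRF+H2O2+TRF arrays, 6623 and 10048 in TRF arrays, 7971 and 9325 in H2O2 arrays and 7434 and 9952 in control arrays. The sum of 6 muscle markers ran between 17592 and 31269 in TRF+H2O2+TRF arrays, 16757 and 24243 in TRF arrays, 22814 and 29310 in H2O2 arrays and 16331 and 24873 in control arrays. Its median was 26560.0 in TRF+H2O2+TRF arrays, 22163 in TRF arrays, 25650.0 in H2O2 arrays and 18756 in control arrays, the lowest. The sum of 8 oocyte markers ran between 51768 and 66839 in TRF+H2O2+TRF arrays, 55894 and 67849 in TRF arrays, 53741 and 76683 in H2O2 arrays and 57874 and 69709 in control arrays. The sum of 8 intestinal markers, for the tissue where SKN-1 acts in stress, ran between 28066 and 34422 in TRF+H2O2+TRF arrays, 27872 and 32877 in TRF arrays, 32616 and 39304 in H2O2 arrays and 27769 and 37161 in control arrays, so that the TRF and H2O2 arrays barely overlapped. The ranges of every sum met between all groups, while their medians differed. Sperm markers summed to at most 1207 in any array, with 2 of 9 past the filter, and no marker of any list was at 0. Correlations were taken with the mean log2 signal of each marker list, not with these sums. Over the 18 arrays the leading sek-1 probe set correlated with that mean at r = 0.66 for neuronal and 0.58 for muscle markers. For intestinal markers its r was 0.54, and pmk-1 gave 0.63 with the neuronal markers. The second sek-1 probe set, 192392_at, gave 0.16 for neuronal, 0.16 for muscle and 0.47 for intestinal markers. With the oocyte marker mean the sek-1 probe sets differed in sign, at -0.50 for the leading one and 0.40 for 192392_at. Both gss-1 probe sets correlated with the oocyte marker mean, at 0.62 for 173115_s_at and 0.68 for 189757_s_at, as did skn-1 188421_at, at 0.70. Without the arrays numbered 5 these were 0.36, 0.38 and 0.55. The brighter skn-1 probe sets had the opposite sign with the oocyte marker mean, at -0.31 for 194169_s_at and -0.30 for 174799_at over the 18 arrays. Negative values were also found for gss-1 173115_s_at with the neuronal marker mean, at -0.61, and for pmk-1 with the oocyte marker mean, at -0.56. Without the arrays numbered 5 these values were -0.59 and -0.31. The other gss-1 probe set, 189757_s_at, gave -0.34 with the neuronal marker mean over the 18 arrays. The part of tissue make-up in the values of these genes was not tested.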

How the data were processed

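Total RNA of whole worms was labelled with biotin, per the labels, and hybridised to 18 Affymetrix arrays. The authors deposited intensity values, which per the submitters' processing notes came from MAS5 in the Affymetrix Expression Console (versions not stated). The mean signal trimmed by 2% at each end was 500.1 on every array, so the deposited arrays share a scale. No source used here names a genome build for them, and array-wise detection calls were not used here.

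Groups and replicate numbers came from sample titles. Values were taken as log2(signal + 1) with no further normalization, without the 77 control probe sets, and the 13529 whose mean reached the 40th percentile (geometric mean signal 47.0) were tested with limma 3.58.1 in R 4.3.3 (lmFit, eBayes with trend, two-sided, only the arrays compared, Benjamini-Hochberg adjustment, threshold 0.05). Log2 fold changes carry limma's SE and 95% intervals and are the first group minus the second; a fold change on this scale slightly understates that of low signals. The interaction and the test of any difference used all 18 arrays. Symbols came from the platform's probe table, which can be old. Of the tested probe sets 12848 had 1 symbol, 442 several and 239 none here, and no gene was named from a probe set with several.

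Same-numbered arrays deviated together in every pair for H2O2 and control (r = 0.28 to 0.681) and for TRF+H2O2+TRF and TRF (r = 0.35 to 0.686), so the numbers were taken as pairs there. For TRF and control (r = -0.224 to 0.541), TRF+H2O2+TRF and H2O2 (r = 0.0216 to 0.327) and TRF+H2O2+TRF and control (r = -0.147 to 0.494) they were not. The main fits, with their SE, intervals and p-values, left the pairing out in every comparison. With the replicate number as a block, 1287 probe sets had a limma p under 0.05 for H2O2 against control, beside 317 without it. None passed the threshold with the block, where the smallest adjusted limma p was 0.108.

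All probe sets of the members were named. From each list the text names the gene with the smallest limma p in each comparison of the series design, and for skn-1 and gcs-1 the 3 genes of most similar pattern. The members and lists were chosen with earlier results of these data known. In the lists gsk-3, trx-1, cbs-2, gpx-8 and gsto-2 were below the filter and glrx-22 had no listed probe set, while 3 names of the immune list are older names of its other genes. The fits were tested on simulated data with known changes, drawn independently for each array. Of 100 simulated 2-fold changes, 73 passed the threshold for H2O2 against control and 59 for TRF against control. For TRF+H2O2+TRF against H2O2 it was 61. Each simulated comparison also held 100 4-fold changes, and many true changes make the adjusted threshold easier to pass. In the real data at most 1 of 13529 probe sets passed in these comparisons. The simulated counts therefore check the fits and do not give the chance that a single 2-fold change of a member would pass. Alternatives were the filter, quantile normalization, median centring, pseudocount 16, no trend, array weights, a fit over all 18 arrays, the replicate number as a block, the methods' t-test, the mean over a gene's probe sets, and leaving out single arrays or the arrays numbered 5, whose sample records come after all the others.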

Additional observations from a re-analysis of the deposited data

Results flagged for a closer look

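Of the 48 groups of arrays checked over the 12 probe sets, 1 held an array far from the rest. In the H2O2 group the gss-1 probe set 189757_s_at read 835 in replicate 5, while the nearest other array read 532 and the lowest 468. The gap between that array and its nearest neighbour took 0.823 of the whole range of the group, beside a critical value of 0.71 for 5 samples. About 1 in 20 groups passes this limit by chance, so 1 of 48 is no more than that. Control replicate 5 was also the highest control array for this probe set, at 698.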

How the results depend on the processing

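No probe set of these genes passed the threshold under any alternative run, and of 728 log2 fold changes of the leading probe sets over 35 results, 658 kept their direction and 70, in 16 results, did not; all 70 started from values within the replicate spread, and the cause was not tested. In H2O2 against control, sek-1 turned to -0.051 with median centring, -0.045 with array weights and -0.025 as the mean of the gene's probe sets, gcs-1 to -0.036 as that mean, and pmk-1 to 0.075 without the arrays numbered 5. In TRF against control, median centring gave skn-1 -0.041 and gsr-1 -0.082, and skn-1 was -0.011 both with the replicate block and without the arrays numbered 5, which the block also leaves unpaired. In TRF+H2O2+TRF against H2O2, gcs-1 was -0.023 after quantile normalization and pmk-1 -0.11 with the block or without the arrays numbered 5. In TRF+H2O2+TRF against control, median centring gave skn-1 -0.023, pmk-1 -0.049, gss-1 -0.067 and gsr-1 -0.072, array weights skn-1 -0.012 and pmk-1 -0.028, the block or leaving out the arrays numbered 5 skn-1 -0.012, pmk-1 -0.031 and gsr-1 -0.0023, and the mean of the probe sets gss-1 -0.021. In TRF+H2O2+TRF against TRF, skn-1 was 0.019 after quantile normalization and 0.018 after median centring, and gsr-1 0.0097 after median centring and 0.0020 with array weights. Leaving out each array in turn moved the following across 0. In H2O2 against control these were pmk-1 (-0.094 to 0.14) and sek-1 (-0.095 to 0.12), and in TRF against control skn-1 (-0.068 to 0.18). In TRF+H2O2+TRF against H2O2 they were wdr-23 (-0.095 to 0.24), pmk-1 (-0.11 to 0.17) and gcs-1 (-0.066 to 0.14), and against control skn-1 (-0.012 to 0.17), pmk-1 (-0.11 to 0.15), gss-1 (-0.070 to 0.095) and gsr-1 (-0.031 to 0.039). Against TRF they were skn-1 (-0.12 to 0.12), wdr-23 (-0.13 to 0.032), sek-1 (-0.14 to 0.12) and gsr-1 (-0.047 to 0.023). Without crossing 0, single arrays moved in H2O2 against control wdr-23 (0.027 to 0.39), gcs-1 (0.0021 to 0.20), gss-1 (-0.23 to -0.038) and skn-1 (-0.34 to -0.14), and in TRF against control wdr-23 (0.18 to 0.49) and pmk-1 (0.055 to 0.41). The count past the threshold over all tested probe sets was 1 for TRF against control, and became 2 with median centring, 0 by the methods' t-test after adjustment and 1 to 2 with single arrays left out (2 without TRF replicate 2). For TRF+H2O2+TRF against control it was 0, and 0 to 1 with single arrays left out (1 without control replicate 4 or TRF+H2O2+TRF replicate 4). For TRF+H2O2+TRF against TRF, where the numbers pair the arrays, the block raised it to 1, the gene C30E1.9, named after its values were seen; with the block the smallest adjusted p of the leading probe sets in any comparison was 0.661, for skn-1 in H2O2 against control. The block changed no other call. The within-group SD of gsr-1, 0.055, was 0.090 after quantile normalization, 0.14 after median centring, 0.055 with pseudocount 16 and 0.056 without the arrays numbered 5, alternatives chosen after seeing the data. Fewer than 6 arrays per group, and the absence of detection calls in the values used, limit what these signals can resolve.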
